A study of Bos taurus with 6 samples.

Results

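Voltage-gated and transient receptor potential (TRP) ion channel genes were followed in the rumen, liver and forebrain of fetal cattle. The set was every row of the count table whose symbol belongs to the potassium channel (KCN), sodium channel (SCN), calcium channel (CACN), pacemaker channel (HCN), TRPC, TRPM or TRPV families, which gave 107 of 14179 gene symbols. Of these, 106 had at least 1 count in some library and 83 passed the filter on low counts and were tested. The pattern also took in genes that form no pore. TRPC4AP is an adaptor named for its association with TRPC4, and KCNRG is a regulator of potassium channels. Most of the others were auxiliary subunits. The auxiliary potassium family, with KCNRG, held 12 genes, the auxiliary calcium family 11 and the sodium beta family 4. Beta subunits of calcium-activated potassium channels form no pore either. A RefSeq gene table listed all 107 symbols, among 162 symbols of the same pattern, and the others were not analysed here.

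Poly(A) RNA came from 3 tissues of wild-type male Holstein fetuses at 90 days of age: the rumen, which is the largest forestomach chamber of cattle, the liver and the forebrain. Each tissue had 2 libraries, called Rumen 1 and 2, Liver 1 and 2, and Forebrain 1 and 2. The fetuses came from slaughtered cows, measured 13 to 16 cm from crown to rump, and included 2 males, so the 6 libraries came from at most 2 animals. No label ties a library to a fetus, and the p-values therefore measure only the spread between these libraries, which may be technical. Whole tissue was sequenced, so fewer cells of a type and less RNA per cell cannot be told apart. Total counts per library lay between 10271024 and 18528958. Levels are given as CPM, which are counts scaled by library size. They compare one gene between tissues and not one gene with another, because they are not divided by length. A floor of 3 counts summed over the pair of libraries corresponds to 0.116 CPM in rumen, 0.103 CPM in liver and 0.115 CPM in forebrain. A gene without counts in a tissue has its fold given as a bound against that floor. With 1 to 3 counts, the ratio of pooled counts is given with its counting interval instead. Floors and intervals cover counting error only. A log2 fold change is the first tissue over the second, with its standard error (SE), and a gene passed, or was called, at an adjusted p of 0.05 over all 11478 tested genes.

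Voltage-gated channels open when the membrane depolarises. Sodium channels carry the upstroke of the action potential, calcium channels couple depolarisation to secretion, contraction and transcription, and potassium channels bring the membrane back to rest. Inward rectifiers and two-pore potassium channels hold the resting potential, calcium-activated potassium channels answer to cytosolic calcium, and TRP channels pass cations in response to lipids, temperature, osmotic stress or store release. In the gut wall such channels set the slow electrical rhythm and tone of smooth muscle, in epithelia they carry salt and calcium, and in red blood cells one of them governs cell volume.

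Channel genes summed to a higher level in forebrain than in the other tissues. The genes of the set summed to 546 and 537 CPM in Rumen 1 and 2, 469 and 607 CPM in Liver 1 and 2, and 1804 and 1662 CPM in Forebrain 1 and 2. Both forebrain libraries thus lay above all libraries of the other tissues, while rumen and liver overlapped. At 1 CPM or more in both libraries stood 40 genes in rumen, 34 in liver and 69 in forebrain. The highest of the 3 tissue means was that of rumen for 12 tested genes, that of liver for 19 and that of forebrain for 52. Over all 11478 tested genes it was that of rumen for 2839, that of liver for 4577 and that of forebrain for 4062.

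In rumen against forebrain, 8 of 83 tested channel genes were higher (9.64%), where 19.5% of all tested genes were higher, and 32 were lower (38.6%), where 19.9% of all tested genes were lower. In liver against forebrain, 9 were higher (10.8%), with a background of 29.4%, and 47 were lower (56.6%), with a background of 25.9%. In rumen against liver, 26 were higher (31.3%), with a background of 20.1%, and 11 were lower (13.3%), with a background of 20.3%. The same backgrounds apply to the counts of families and marker lists below, some of which hold few genes. The median log2 fold change of the tested channel genes was -1.99996 in rumen against forebrain, -2.97 in liver against forebrain and 1.61 in rumen against liver. Over all tested genes the medians were -0.01, 0.14 and -0.06. With genes that lacked counts in a tissue set at their bound, the channel medians were -1.99996, -2.96 and 1.58. The comparisons share libraries, so their counts are not independent of each other.

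Calls in either direction came to 40 genes in rumen against forebrain (48.2%, with a background of 39.3%), 56 in liver against forebrain (67.5%, with a background of 55.3%) and 37 in rumen against liver (44.6%, with a background of 40.3%). Levels without overlap were commoner than calls. Both rumen libraries lay above both forebrain libraries for 9 genes (10.8%, with a background of 39.7%) and below them for 57 (68.7%, with a background of 41.4%). Both liver libraries lay above both forebrain libraries for 14 genes (16.9%, with a background of 40.1%) and below them for 52 (62.7%, with a background of 37.8%). Both rumen libraries lay above both liver libraries for 40 genes (48.2%, with a background of 34.6%) and below them for 17 (20.5%, with a background of 34.6%).

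The counts of calls depended on how many libraries entered. In rumen against forebrain the 32 lower genes became 19 without Rumen 1, 18 without Rumen 2 and 14 without Forebrain 1 or without Forebrain 2, and the 8 higher genes became 4, 4, 3 and 4 in that order. In liver against forebrain the 47 lower genes became 25 without Forebrain 1 and 29 without Forebrain 2, and the 9 higher genes became 4 and 5. In rumen against liver the 26 higher genes became 16 on leaving out Rumen 1 or Rumen 2 and 15 on leaving out Forebrain 1 or Forebrain 2. The 11 lower genes there became 4 without Rumen 1, 6 without Rumen 2, 5 without either Forebrain library and 17 without Liver 1. No call changed direction in any of these fits.

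**Figure D1:**
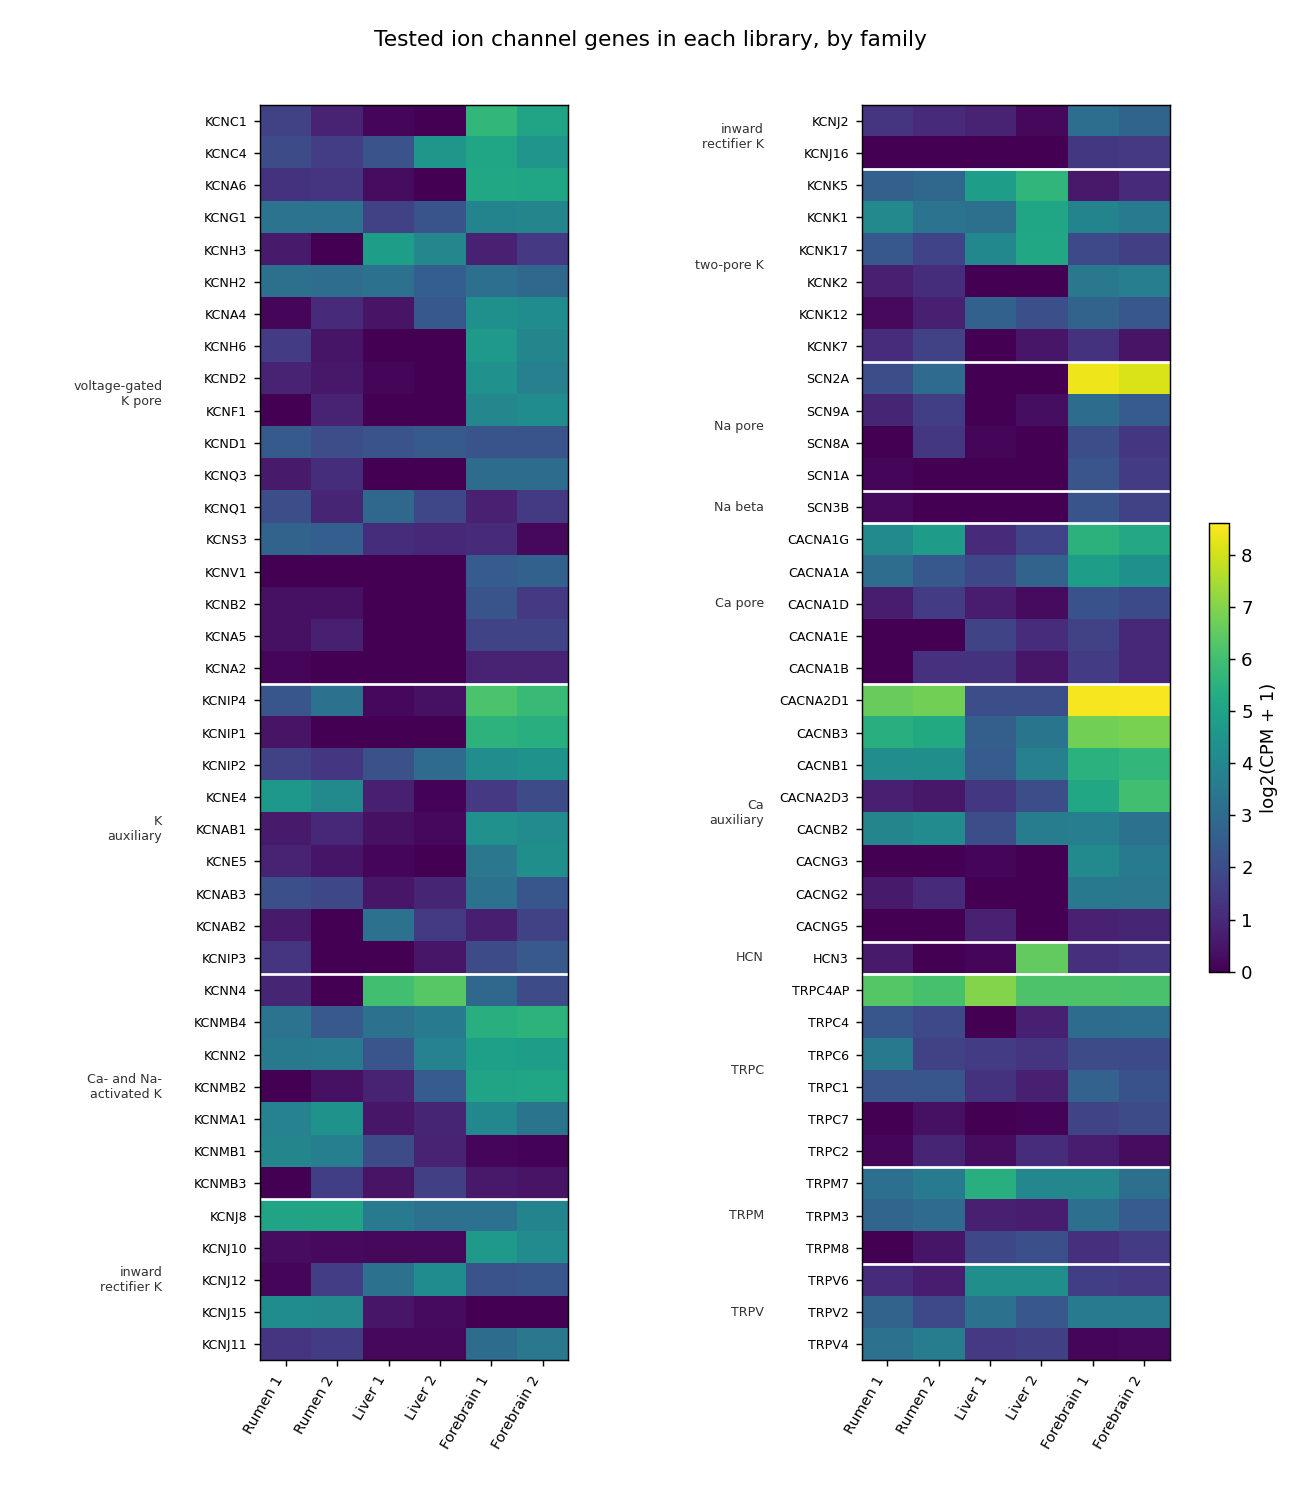
Level of 78 of the 83 tested channel genes (rows, grouped by family, the highest mean first) in the 6 libraries (columns), as log2(CPM + 1). Most rows are brightest in the 2 forebrain columns, SCN2A and CACNA2D1 most of all, while KCNJ15, KCNE4, KCNMB1 and TRPV4 stand out in rumen and KCNN4, KCNK5, KCNH3 and TRPV6 in liver.

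**Figure D2:**
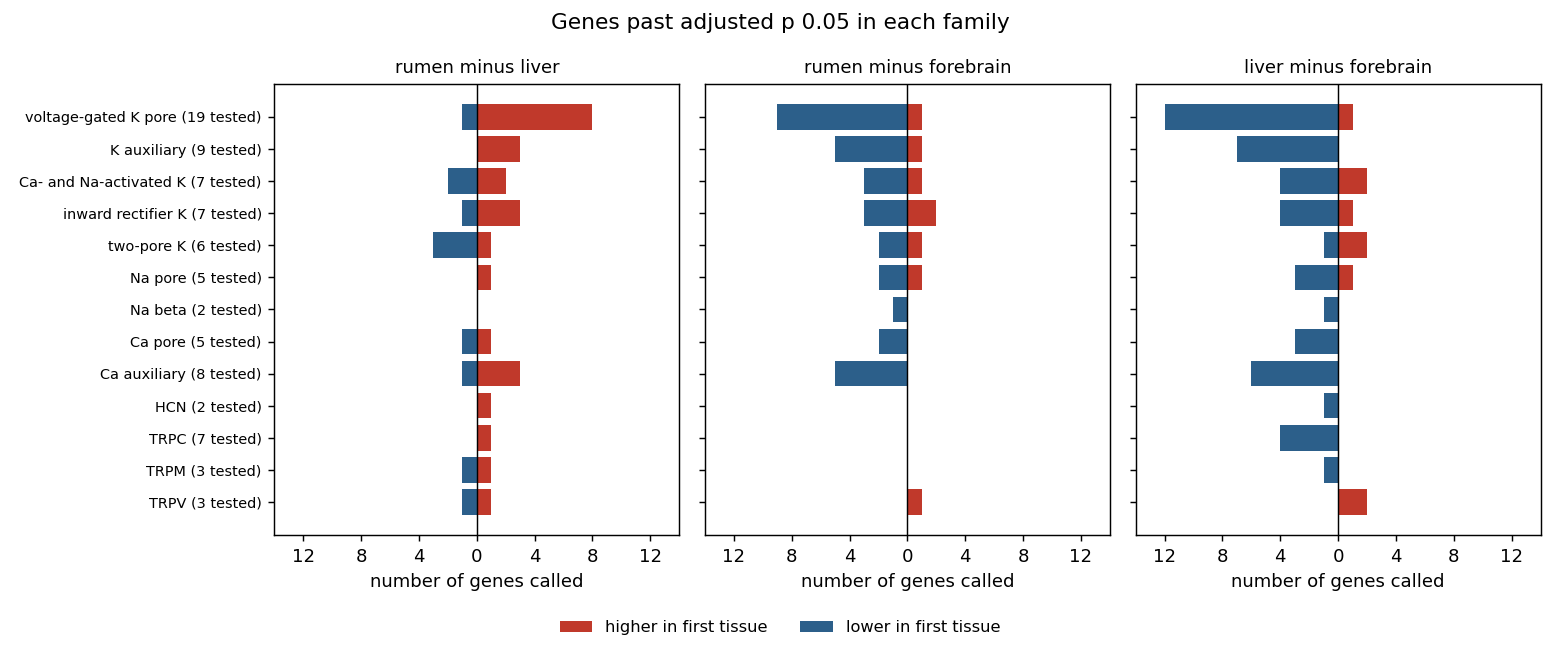
Number of genes of each family that passed adjusted p 0.05 in each comparison, with genes higher in the first tissue to the right of 0 and genes lower in it to the left. Voltage-gated potassium pore genes gave 12 lower calls in liver against forebrain and 9 in rumen against forebrain.

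Markers of neurons moved with the forebrain channels. The neuron list summed to 464 and 499 CPM in Rumen 1 and 2, 83.4 and 64.2 CPM in Liver 1 and 2, and 13106 and 12428 CPM in Forebrain 1 and 2. Of its 14 tested members, 13 were lower in rumen against forebrain, all 14 were lower in liver against forebrain, and 9 were higher in rumen against liver. The glutamate and GABA neuron markers SLC17A6, GAD1 and GAD2 were at 0 in rumen, and SLC17A6, GAD1, TUBB3, ELAVL4, DCX and NEFL were at 0 in liver. Enteric neuron and glia markers summed to 409 and 457 CPM in Rumen 1 and 2, 7.37 and 6.17 CPM in Liver 1 and 2, and 1900 and 2414 CPM in Forebrain 1 and 2. In Forebrain 1 and 2 most of that sum was GAP43, at 1440 and 1688 CPM, and S100B, at 397 and 660 CPM. PHOX2A was at 0 in forebrain. Of 8 tested members, 7 were higher in rumen against liver, while 3 were higher and 3 lower in rumen against forebrain. PHOX2A, VIP and SOX10 were among those at 0 in liver. The part of cell composition in the channel results was not tested.

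Most sodium channel genes that passed were higher in forebrain. SCN2A encodes Nav1.2, a main sodium channel of developing neurons. It stood at 3.21 and 7.02 CPM in Rumen 1 and 2, no counts in either Liver library, and 335 and 275 CPM in Forebrain 1 and 2. The forebrain libraries lay far above the others, rumen was low and liver empty. SCN2A was lower, with a log2 fold change of -5.89 ± 0.48 (SE) and edgeR adjusted p = 0.000757 in rumen against forebrain, at least 2929-fold lower (edgeR adjusted p = 0.000132) in liver against forebrain and at least 49.3-fold higher (edgeR adjusted p = 0.00162) in rumen against liver. SCN1A, the Nav1.1 gene known for inhibitory neurons, stood at 0.0765 and 0 CPM in Rumen 1 and 2, no counts in either Liver library, and 3.82 and 1.88 CPM in Forebrain 1 and 2. SCN3B, an auxiliary beta subunit, stood at 0.153 and 0 CPM in Rumen 1 and 2, no counts in either Liver library, and 3.66 and 2.24 CPM in Forebrain 1 and 2. Both forebrain libraries lay above the others for these genes as well. SCN1A was 72.2-fold lower by pooled counts with a 95% counting interval of 12.6 to 2892 and edgeR adjusted p = 0.0209 in rumen against forebrain, and SCN3B was 37.6-fold lower by pooled counts with a 95% counting interval of 10.1 to 316 and edgeR adjusted p = 0.0307. SCN1A and SCN3B did not pass in rumen against forebrain without either Rumen library or either Forebrain library (edgeR adjusted p from 0.0723 to 0.242).

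Of the 5 tested sodium pore genes, 2 were lower and 1 was higher in rumen against forebrain. In liver against forebrain 3 were lower and 1 was higher. The lower genes in liver were SCN1A, SCN2A and SCN9A, the Nav1.7 gene of sensory neurons. Without Forebrain 1 or Forebrain 2 the 3 lower genes there became 1.

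Of the 5 tested calcium channel pore genes, 2 were lower in rumen against forebrain, with a background of 19.9%. In liver against forebrain 3 were lower, with a background of 25.9%. Leaving out any single Rumen or Forebrain library brought the 2 lower genes to 0, and leaving out Forebrain 1 brought the 3 to 1. CACNA1G encodes Cav3.1, a low-voltage T-type channel of pacemaking cells. It stood at 16.4 and 25.99 CPM in Rumen 1 and 2, 1.04 and 2.31 CPM in Liver 1 and 2, and 45.5 and 35.6 CPM in Forebrain 1 and 2. Liver lay below both other tissues, and rumen lay below forebrain without overlap. CACNA1G was higher, with a log2 fold change of 3.64 ± 0.50 (SE) and edgeR adjusted p = 0.00222 in rumen against liver and lower, with a log2 fold change of -4.58 ± 0.52 (SE) and edgeR adjusted p = 0.000630 in liver against forebrain. In rumen against forebrain it was not called, with a log2 fold change of -0.94 ± 0.44 (SE) and edgeR adjusted p = 0.136. CACNA1E, an R-type channel gene, had no counts in either Rumen library, 2.38 and 1.16 CPM in Liver 1 and 2, and 2.20 and 1.01 CPM in Forebrain 1 and 2. It had counts in liver and forebrain alone, and was at least 13.5-fold lower (edgeR adjusted p = 0.0167) in rumen against forebrain and at least 14.9-fold lower (edgeR adjusted p = 0.0151) in rumen against liver. CACNA1E did not pass in rumen against liver without either Rumen library or either Forebrain library (edgeR adjusted p from 0.0591 to 0.0678). CACNA1E did not pass in rumen against forebrain without either Rumen library or either Forebrain library (edgeR adjusted p from 0.0726 to 0.129).

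CACNA2D1, the alpha2delta subunit that carries calcium channels to the surface and binds gabapentin, stood at 96.3 and 109 CPM in Rumen 1 and 2, 3.20 and 3.15 CPM in Liver 1 and 2, and 355 and 362 CPM in Forebrain 1 and 2. The tissues did not overlap, with forebrain highest, rumen between and liver lowest. CACNA2D1 was higher, with a log2 fold change of 5.01 ± 0.24 (SE) and edgeR adjusted p = 0.000222 in rumen against liver, lower, with a log2 fold change of -1.80 ± 0.20 (SE) and edgeR adjusted p = 0.00118 in rumen against forebrain and lower, with a log2 fold change of -6.82 ± 0.26 (SE) and edgeR adjusted p = 6.06e-05 in liver against forebrain. These calls held without any single library. CACNB3, a cytosolic beta subunit, showed the same order at 41.1 and 36.4 CPM in Rumen 1 and 2, 5.06 and 9.12 CPM in Liver 1 and 2, and 109 and 117 CPM in Forebrain 1 and 2. It was higher, with a log2 fold change of 2.45 ± 0.33 (SE) and edgeR adjusted p = 0.00206 in rumen against liver and lower, with a log2 fold change of -1.55 ± 0.31 (SE) and edgeR adjusted p = 0.0101 in rumen against forebrain. CACNB3 did not pass in rumen against forebrain without either Rumen library or either Forebrain library (edgeR adjusted p from 0.0676 to 0.0921). The related CACNB1 stood at 17.6 and 18.5 CPM in Rumen 1 and 2, 4.69 and 12.3 CPM in Liver 1 and 2, and 44.2 and 51.2 CPM in Forebrain 1 and 2, and was lower, with a log2 fold change of -2.49 ± 0.48 (SE) and edgeR adjusted p = 0.00538 in liver against forebrain. In rumen against forebrain CACNB1 was not called, with a log2 fold change of -1.40 ± 0.46 (SE) and edgeR adjusted p = 0.0509.

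CACNA2D3, CACNG2 and CACNG3 were lower in rumen than in forebrain. CACNA2D3, another alpha2delta gene, which overlaps LRTM1 in the RefSeq annotation, stood at 0.689 and 0.468 CPM in Rumen 1 and 2, 1.64 and 3.15 CPM in Liver 1 and 2, and 34.2 and 62.5 CPM in Forebrain 1 and 2. It was lower, with a log2 fold change of -6.36 ± 0.61 (SE) and edgeR adjusted p = 0.000708 in rumen against forebrain. CACNG3, which also serves glutamate receptors as a trafficking subunit, had no counts in either Rumen library, 0.0744 and 0 CPM in Liver 1 and 2, and 15.8 and 10.6 CPM in Forebrain 1 and 2. CACNG2, called stargazin, had 0.536 and 1.09 CPM in Rumen 1 and 2, no counts in either Liver library, and 10.2 and 9.60 CPM in Forebrain 1 and 2. Forebrain lay above both other tissues for each of these genes. CACNG3 was at least 112-fold lower (edgeR adjusted p = 0.00292) in rumen against forebrain, and CACNG2 was lower, with a log2 fold change of -3.59 ± 0.73 (SE) and edgeR adjusted p = 0.0138. CACNG2 was at least 7.84-fold higher (edgeR adjusted p = 0.0123) in rumen against liver, a comparison of 7 and 14 counts with none. CACNG2 did not pass in rumen against forebrain without either Rumen library or either Forebrain library (edgeR adjusted p from 0.0582 to 0.125). CACNG2 did not pass in rumen against liver without Rumen 2 or either Forebrain library (edgeR adjusted p from 0.0521 to 0.0534). Of the 8 tested auxiliary calcium channel genes, 5 were lower in rumen against forebrain and 6 were lower in liver against forebrain. In rumen against forebrain the lower genes numbered 3 without either Rumen library or either Forebrain library and 8 without either Liver library. CACNB2, a beta subunit gene of heart and smooth muscle, passed in none of the comparisons, at 14.2 and 16.5 CPM in Rumen 1 and 2, 3.20 and 11.4 CPM in Liver 1 and 2, and 11.95 and 8.37 CPM in Forebrain 1 and 2.

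Voltage-gated potassium pore genes formed the largest family, with 23 members of which 19 were tested. In rumen against forebrain 1 was higher and 9 lower, in liver against forebrain 1 was higher and 12 lower, and in rumen against liver 8 were higher and 1 lower. The 9 lower genes became 6 without Rumen 1, 5 without Rumen 2, 2 without Forebrain 1 and 3 without Forebrain 2. The 12 lower genes in liver against forebrain became 7 without Forebrain 1 and 8 without Forebrain 2. The 8 higher genes in rumen against liver became 3 without either Rumen library or Forebrain 2 and 2 without Forebrain 1. KCNC1, the Kv3.1 gene of fast-spiking neurons, stood at 2.14 and 0.780 CPM in Rumen 1 and 2, 0.0744 and 0 CPM in Liver 1 and 2, and 50.3 and 31.7 CPM in Forebrain 1 and 2. It was lower, with a log2 fold change of -4.80 ± 0.68 (SE) and edgeR adjusted p = 0.00275 in rumen against forebrain. KCND2, the A-type Kv4.2 gene of dendrites, stood at 0.765 and 0.468 CPM in Rumen 1 and 2, 0.0744 and 0 CPM in Liver 1 and 2, and 19.4 and 12.3 CPM in Forebrain 1 and 2, and was lower, with a log2 fold change of -4.66 ± 0.75 (SE) and edgeR adjusted p = 0.00439 in rumen against forebrain. KCNQ3, a subunit of the M-current that damps repetitive firing, stood at 0.536 and 1.17 CPM in Rumen 1 and 2, no counts in either Liver library, and 7.24 and 7.29 CPM in Forebrain 1 and 2. For all 3 genes both forebrain libraries lay above every other library. KCNQ3 was at least 70.2-fold lower (edgeR adjusted p = 0.00209) in liver against forebrain. KCND2 did not pass in rumen against forebrain without Forebrain 1 (edgeR adjusted p = 0.0647).

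Subunits that do not form channels alone but modify a partner were part of the forebrain pattern. KCNF1 stood at 0 and 0.780 CPM in Rumen 1 and 2, no counts in either Liver library, and 14.96 and 16.96 CPM in Forebrain 1 and 2, and forebrain lay above both other tissues. KCNV1 had no counts in either Rumen library, no counts in either Liver library, and 4.72 and 5.41 CPM in Forebrain 1 and 2. KCNF1 was lower, with a log2 fold change of -5.33 ± 1.29 (SE) and edgeR adjusted p = 0.0243 in rumen against forebrain, and KCNV1 was at least 43.9-fold lower (edgeR adjusted p = 0.00977). KCNF1 and KCNV1 did not pass in rumen against forebrain without either Forebrain library (edgeR adjusted p from 0.0959 to 0.128). KCNH6, of the ether-a-go-go family, stood at 1.84 and 0.390 CPM in Rumen 1 and 2, no counts in either Liver library, and 23.8 and 14.4 CPM in Forebrain 1 and 2. It was at least 182-fold lower (edgeR adjusted p = 0.00218) in liver against forebrain and lower, with a log2 fold change of -4.09 ± 0.88 (SE) and edgeR adjusted p = 0.0169 in rumen against forebrain. KCNH6 did not pass in rumen against forebrain without Rumen 2 or either Forebrain library (edgeR adjusted p from 0.0652 to 0.125). The family did not move as a block. KCNH2, which encodes the hERG channel, passed in none of the comparisons, at 8.03 and 7.34 CPM in Rumen 1 and 2, 8.34 and 4.95 CPM in Liver 1 and 2, and 7.81 and 6.57 CPM in Forebrain 1 and 2.

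KCNS3, whose product joins other voltage-gated potassium channels as a modifying subunit, was higher in rumen than in forebrain. KCNS3 stood at 5.74 and 4.92 CPM in Rumen 1 and 2, 1.19 and 0.963 CPM in Liver 1 and 2, and 1.06 and 0.144 CPM in Forebrain 1 and 2, and rumen lay above both other tissues. It was higher, with a log2 fold change of 3.15 ± 0.97 (SE) and edgeR adjusted p = 0.0423 in rumen against forebrain but not called, with a log2 fold change of 2.30 ± 0.92 (SE) and edgeR adjusted p = 0.0912 in rumen against liver. KCNS3 did not pass in rumen against forebrain without either Rumen library or either Forebrain library (edgeR adjusted p from 0.0627 to 0.205).

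KCNH3, another member of the ether-a-go-go family, was the voltage-gated potassium pore gene enriched in liver. It stood at 0.536 and 0 CPM in Rumen 1 and 2, 26.9 and 14.6 CPM in Liver 1 and 2, and 0.732 and 1.66 CPM in Forebrain 1 and 2. Both liver libraries lay above all others. KCNH3 was lower, with a log2 fold change of -6.22 ± 1.18 (SE) and edgeR adjusted p = 0.00752 in rumen against liver and higher, with a log2 fold change of 4.10 ± 1.02 (SE) and edgeR adjusted p = 0.0147 in liver against forebrain. KCNH3 did not pass in liver against forebrain without either Forebrain library (edgeR adjusted p from 0.0684 to 0.109). KCNH3 overlaps the gene MCRS1 in the RefSeq annotation, and reads of an overlapping pair cannot be told apart where counting ignores strand. The sources used here do not give that setting. MCRS1 stood at 22.96 and 32.3 CPM in Rumen 1 and 2, 41.2 and 38.6 CPM in Liver 1 and 2, and 31.5 and 36.9 CPM in Forebrain 1 and 2.

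Auxiliary potassium channel subunits included the KChIP calcium sensors, which bind Kv4 channels. KCNIP4 stood at 3.98 and 8.35 CPM in Rumen 1 and 2, 0.149 and 0.321 CPM in Liver 1 and 2, and 70.3 and 54.1 CPM in Forebrain 1 and 2. KCNIP1 had 0.383 and 0 CPM in Rumen 1 and 2, no counts in either Liver library, and 46.3 and 41.6 CPM in Forebrain 1 and 2. KCNIP2 stood at 2.22 and 1.56 CPM in Rumen 1 and 2, 3.42 and 7.00 CPM in Liver 1 and 2, and 17.6 and 19.9 CPM in Forebrain 1 and 2. Forebrain was highest for each, while the order of rumen and liver differed between them. KCNIP4 was lower, with a log2 fold change of -3.33 ± 0.47 (SE) and edgeR adjusted p = 0.00265 in rumen against forebrain and higher, with a log2 fold change of 4.63 ± 0.60 (SE) and edgeR adjusted p = 0.00177 in rumen against liver. KCNIP1 was lower, with a log2 fold change of -7.77 ± 0.96 (SE) and edgeR adjusted p = 0.00281 in rumen against forebrain. KCNIP1 overlaps KCNMB1 in the RefSeq annotation, and these genes ran in opposite directions between rumen and forebrain. KCNIP2 was lower, with a log2 fold change of -3.31 ± 0.56 (SE) and edgeR adjusted p = 0.00524 in rumen against forebrain. KCNIP2 did not pass in rumen against forebrain without Rumen 2 (edgeR adjusted p = 0.0522). KCNE5, a small single-pass subunit, stood at 0.765 and 0.390 CPM in Rumen 1 and 2, 0.0744 and 0 CPM in Liver 1 and 2, and 9.68 and 18.7 CPM in Forebrain 1 and 2, and was lower, with a log2 fold change of -4.59 ± 0.82 (SE) and edgeR adjusted p = 0.00642 in rumen against forebrain. KCNE5 did not pass in rumen against forebrain without Rumen 2 or Forebrain 2 (edgeR adjusted p from 0.0593 to 0.0906).

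KCNE4, a small subunit that inhibits KCNQ1 and Kv1 channels in human and mouse cells, was the exception in its family. It stood at 23.2 and 16.00 CPM in Rumen 1 and 2, 0.670 and 0.0642 CPM in Liver 1 and 2, and 1.71 and 2.89 CPM in Forebrain 1 and 2. Both rumen libraries lay above all others and liver lay below forebrain. KCNE4 was higher, with a log2 fold change of 5.74 ± 0.96 (SE) and edgeR adjusted p = 0.00471 in rumen against liver and higher, with a log2 fold change of 3.08 ± 0.82 (SE) and edgeR adjusted p = 0.0257 in rumen against forebrain. KCNE4 did not pass in rumen against forebrain without either Rumen library or either Forebrain library (edgeR adjusted p from 0.0853 to 0.171). Of the 9 tested auxiliary potassium genes, KCNE4 alone was higher in rumen against forebrain and 5 were lower, of which 3 were lower without Rumen 2.

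The subunits of the large-conductance calcium-activated potassium (BK) channel differed in where they were high. KCNMA1, the pore subunit, stood at 13.01 and 20.4 CPM in Rumen 1 and 2, 0.447 and 0.835 CPM in Liver 1 and 2, and 15.2 and 9.02 CPM in Forebrain 1 and 2. Rumen and forebrain overlapped, and liver lay below both. KCNMA1 was higher, with a log2 fold change of 4.67 ± 0.61 (SE) and edgeR adjusted p = 0.00189 in rumen against liver, lower, with a log2 fold change of -4.21 ± 0.61 (SE) and edgeR adjusted p = 0.00169 in liver against forebrain and not called, with a log2 fold change of 0.46 ± 0.51 (SE) and edgeR adjusted p = 0.504 in rumen against forebrain. KCNMB1, the beta subunit known from smooth muscle, stood at 14.2 and 12.02 CPM in Rumen 1 and 2, 2.90 and 0.771 CPM in Liver 1 and 2, and 0.0813 and 0.0722 CPM in Forebrain 1 and 2. Both rumen libraries lay above liver, and liver above forebrain. KCNMB1 was 172-fold higher by pooled counts with a 95% counting interval of 47.2 to 1424 and edgeR adjusted p = 0.00251 in rumen against forebrain and higher, with a log2 fold change of 2.84 ± 0.74 (SE) and edgeR adjusted p = 0.0237 in rumen against liver. KCNMB1 did not pass in rumen against liver without either Rumen library or either Forebrain library (edgeR adjusted p from 0.0547 to 0.110).

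KCNMB2, whose product inactivates the channel, stood at 0 and 0.312 CPM in Rumen 1 and 2, 0.819 and 4.62 CPM in Liver 1 and 2, and 31.4 and 32.4 CPM in Forebrain 1 and 2. KCNMB4, the beta subunit known from brain, stood at 8.72 and 4.29 CPM in Rumen 1 and 2, 8.34 and 10.5 CPM in Liver 1 and 2, and 42.3 and 46.3 CPM in Forebrain 1 and 2. Forebrain lay above both other tissues for these genes, the reverse of KCNMB1. KCNMB2 and KCNMB4 overlap other genes in the RefSeq annotation, as KCNMB1 does. KCNMB2 was lower, with a log2 fold change of -7.60 ± 1.26 (SE) and edgeR adjusted p = 0.00493 in rumen against forebrain, and KCNMB4 was lower, with a log2 fold change of -2.77 ± 0.43 (SE) and edgeR adjusted p = 0.00382. Smooth muscle markers moved with KCNMB1. The list summed to 10026 and 10661 CPM in Rumen 1 and 2, 502 and 336 CPM in Liver 1 and 2, and 63.7 and 91.4 CPM in Forebrain 1 and 2, with 8 of 11 tested members higher in rumen against liver, 11 of 11 higher in rumen against forebrain and none at 0 in any tissue. The part of smooth muscle content in the level of KCNMB1 was not tested.

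**Figure D3:**
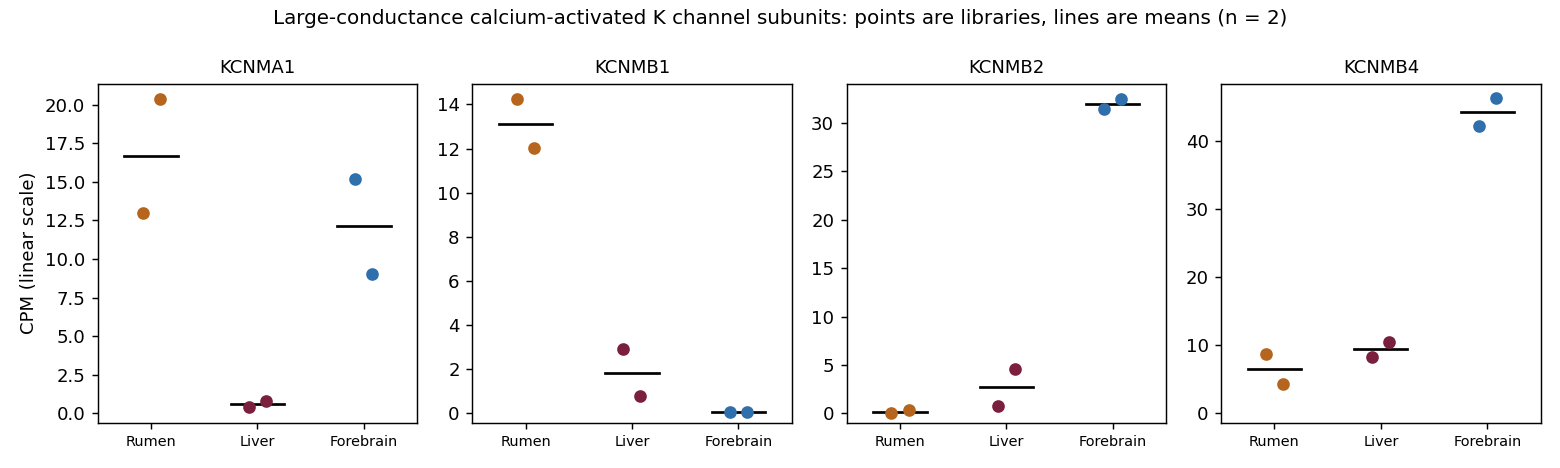
CPM of the pore subunit KCNMA1 and of 3 beta subunits of the BK channel in each library, with the mean of each tissue as a line. KCNMA1 overlaps between rumen and forebrain, KCNMB1 is highest in rumen, and KCNMB2 and KCNMB4 are highest in forebrain.

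KCNN4, the intermediate-conductance channel known as the Gardos channel of red blood cells, had its highest level in liver. It stood at 0.842 and 0 CPM in Rumen 1 and 2, 62.3 and 81.3 CPM in Liver 1 and 2, and 6.26 and 2.96 CPM in Forebrain 1 and 2. Liver lay above forebrain and forebrain above rumen, without overlap. KCNN4 was lower, with a log2 fold change of -7.37 ± 1.01 (SE) and edgeR adjusted p = 0.00222 in rumen against liver, higher, with a log2 fold change of 3.96 ± 0.81 (SE) and edgeR adjusted p = 0.00695 in liver against forebrain and lower, with a log2 fold change of -3.41 ± 0.95 (SE) and edgeR adjusted p = 0.0309 in rumen against forebrain. KCNN4 did not pass in liver against forebrain without Forebrain 2 (edgeR adjusted p = 0.0675). KCNN4 did not pass in rumen against forebrain without Rumen 2 or either Forebrain library (edgeR adjusted p from 0.0685 to 0.159). Red cell markers moved with it. The erythroid list summed to 549 and 458 CPM in Rumen 1 and 2, 148411 and 56482 CPM in Liver 1 and 2, and 465 and 500.4 CPM in Forebrain 1 and 2. All 10 of its tested members were lower in rumen against liver and higher in liver against forebrain. KCNN4 was the higher of the liver pair in Liver 2, the erythroid sum in Liver 1. Most of that sum was HBG, at 109165 and 37468 CPM in Liver 1 and 2. EPOR, at 161 and 211 CPM, and KLF1, at 724 and 974 CPM, were higher in Liver 2, and the other members in Liver 1. Hepatocyte markers also moved with KCNN4, at 235676 and 198647 CPM in Liver 1 and 2 against 104 and 137 CPM in Forebrain 1 and 2. All 10 tested members were higher in liver against forebrain. The part of either cell type was not tested. KCNN2, a small-conductance channel gene, was lower, with a log2 fold change of -1.70 ± 0.57 (SE) and edgeR adjusted p = 0.0432 in liver against forebrain, at 3.87 and 12.97 CPM in Liver 1 and 2 against 27.9 and 26.8 CPM in Forebrain 1 and 2. KCNN2 did not pass in liver against forebrain without either Rumen library or either Forebrain library or with the 2 tissues fitted alone (edgeR adjusted p from 0.0738 to 0.150).

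Inward rectifiers split between tissues. KCNJ15, the Kir4.2 gene of kidney and secretory epithelia, was high in rumen. It stood at 17.3 and 15.6 CPM in Rumen 1 and 2, 0.447 and 0.193 CPM in Liver 1 and 2, and no counts in either Forebrain library. Rumen lay above both other tissues, with 226 and 200 counts in its libraries against 6 and 3 in those of liver. KCNJ15 was at least 143-fold higher (edgeR adjusted p = 0.00152) in rumen against forebrain and higher, with a log2 fold change of 5.66 ± 0.73 (SE) and edgeR adjusted p = 0.00292 in rumen against liver. Both calls held without any single library. KCNJ8 encodes Kir6.1, the pore of ATP-sensitive channels in vascular smooth muscle and pericytes. It stood at 31.4 and 31.4 CPM in Rumen 1 and 2, 10.9 and 8.35 CPM in Liver 1 and 2, and 8.38 and 13.7 CPM in Forebrain 1 and 2. Rumen lay above both others, which overlapped. KCNJ8 was higher, with a log2 fold change of 1.70 ± 0.38 (SE) and edgeR adjusted p = 0.0138 in rumen against liver and higher, with a log2 fold change of 1.51 ± 0.38 (SE) and edgeR adjusted p = 0.0212 in rumen against forebrain. KCNJ8 did not pass in rumen against liver without either Rumen library (edgeR adjusted p from 0.0787 to 0.0804). KCNJ8 did not pass in rumen against forebrain without either Rumen library or either Forebrain library (edgeR adjusted p from 0.0596 to 0.151). Markers of pericytes and stellate cells, a list that itself holds KCNJ8, summed to 705 and 611 CPM in Rumen 1 and 2, 235 and 121 CPM in Liver 1 and 2, and 47.1 and 48.6 CPM in Forebrain 1 and 2. DES, which is also on the smooth muscle list, made up 622 and 528 CPM of the sums in Rumen 1 and 2. Of 6 tested members, 3 were higher and 2 lower in rumen against liver, and 2 were higher and 0 lower in rumen against forebrain. PDGFRB was highest in liver and RGS5 in forebrain. The part of these cells in the level of KCNJ8 was not tested.

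KCNJ10 and KCNJ16 encode Kir4.1 and Kir5.1, which assemble together in glia and kidney. KCNJ10 stood at 0.230 and 0.156 CPM in Rumen 1 and 2, 0.149 and 0.128 CPM in Liver 1 and 2, and 24.1 and 16.8 CPM in Forebrain 1 and 2, and forebrain lay above both other tissues. KCNJ16 had no counts in either Rumen library, no counts in either Liver library, and 1.63 and 1.66 CPM in Forebrain 1 and 2. Both genes had their highest level in forebrain. KCNJ10 was lower, with a log2 fold change of -6.66 ± 0.64 (SE) and edgeR adjusted p = 0.000700 in rumen against forebrain and lower, with a log2 fold change of -7.12 ± 0.66 (SE) and edgeR adjusted p = 0.000294 in liver against forebrain. KCNJ16, with 20 and 23 counts in forebrain, was at least 14.2-fold lower (edgeR adjusted p = 0.0256) in rumen against forebrain. KCNJ16 did not pass in rumen against forebrain without either Rumen library or either Forebrain library or with DESeq2 (edgeR and DESeq2 adjusted p from 0.0638 to 0.215). Markers of radial glia, astrocytes and the oligodendrocyte lineage summed to 334 and 366 CPM in Rumen 1 and 2, 81.1 and 42.9 CPM in Liver 1 and 2, and 1776 and 2380.2 CPM in Forebrain 1 and 2, with 1 of 10 tested members higher and 7 lower in rumen against forebrain. Their part in the level of KCNJ10 was not tested. KCNJ11, the Kir6.2 pore of ATP-sensitive channels in neurons and pancreatic beta cells, stood at 1.53 and 1.79 CPM in Rumen 1 and 2, 0.149 and 0.128 CPM in Liver 1 and 2, and 7.24 and 9.89 CPM in Forebrain 1 and 2. Its partner ABCC8, the sulfonylurea receptor and the neighbouring gene in the RefSeq annotation, stood at 2.83 and 2.34 CPM in Rumen 1 and 2, no counts in either Liver library, and 21.8 and 16.8 CPM in Forebrain 1 and 2. Both were highest in forebrain and lowest in liver. KCNJ11 was lower, with a log2 fold change of -5.86 ± 0.74 (SE) and edgeR adjusted p = 0.000990 in liver against forebrain. KCNJ12, the Kir2.2 gene, was lower, with a log2 fold change of -3.65 ± 1.15 (SE) and edgeR adjusted p = 0.0441 in rumen against liver, at 0.0765 and 1.95 CPM in Rumen 1 and 2 against 8.56 and 16.96 CPM in Liver 1 and 2. KCNJ12 did not pass in rumen against liver without Rumen 1 or either Forebrain library or with upper quartile scaling or with the 2 tissues fitted alone (edgeR adjusted p from 0.0502 to 0.0918).

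Two-pore potassium channels, which carry leak currents, included 2 genes enriched in liver. KCNK5, the alkaline-activated TASK-2 gene, stood at 5.28 and 6.48 CPM in Rumen 1 and 2, 27.3 and 49.8 CPM in Liver 1 and 2, and 0.488 and 1.08 CPM in Forebrain 1 and 2. KCNK17, of the same alkaline-activated group, stood at 4.13 and 2.34 CPM in Rumen 1 and 2, 15.3 and 34.3 CPM in Liver 1 and 2, and 2.76 and 2.09 CPM in Forebrain 1 and 2. Liver lay above both other tissues for both genes, which are neighbours in the RefSeq annotation. KCNK5 was higher, with a log2 fold change of 5.59 ± 0.60 (SE) and edgeR adjusted p = 0.000506 in liver against forebrain, lower, with a log2 fold change of -2.71 ± 0.50 (SE) and edgeR adjusted p = 0.00696 in rumen against liver and higher, with a log2 fold change of 2.88 ± 0.55 (SE) and edgeR adjusted p = 0.00831 in rumen against forebrain. KCNK17 was higher, with a log2 fold change of 3.35 ± 0.60 (SE) and edgeR adjusted p = 0.00424 in liver against forebrain and lower, with a log2 fold change of -2.94 ± 0.59 (SE) and edgeR adjusted p = 0.00946 in rumen against liver. KCNK5 did not pass in rumen against liver without either Rumen library (edgeR adjusted p from 0.0543 to 0.0653). KCNK5 did not pass in rumen against forebrain without Forebrain 1 (edgeR adjusted p = 0.0647). KCNK17 did not pass in rumen against liver without Rumen 2 (edgeR adjusted p = 0.0767).

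The other two-pore genes differed from these. KCNK2, the mechanosensitive TREK-1 gene, stood at 0.689 and 1.17 CPM in Rumen 1 and 2, no counts in either Liver library, and 10.00 and 11.8 CPM in Forebrain 1 and 2, highest in forebrain. It was at least 106-fold lower (edgeR adjusted p = 0.00108) in liver against forebrain and lower, with a log2 fold change of -3.54 ± 0.68 (SE) and edgeR adjusted p = 0.0116 in rumen against forebrain. KCNK2 did not pass in rumen against forebrain without either Rumen library or either Forebrain library (edgeR adjusted p from 0.0600 to 0.123). KCNK12 was low in rumen alone, at 0.153 and 0.702 CPM in Rumen 1 and 2, 5.36 and 3.28 CPM in Liver 1 and 2, and 5.69 and 4.04 CPM in Forebrain 1 and 2, and was lower, with a log2 fold change of -3.31 ± 0.87 (SE) and edgeR adjusted p = 0.0248 in rumen against liver. KCNK12 did not pass in rumen against liver without Rumen 1 or either Forebrain library or with the 2 tissues fitted alone (edgeR adjusted p from 0.0589 to 0.108). KCNK1, the TWIK-1 gene, passed in none of the comparisons, at 15.5 and 8.58 CPM in Rumen 1 and 2, 8.04 and 33.1 CPM in Liver 1 and 2, and 13.6 and 10.5 CPM in Forebrain 1 and 2.

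HCN channels open on hyperpolarisation and drive pacemaking. HCN3 stood at 0.536 and 0 CPM in Rumen 1 and 2, 0.0744 and 90.7 CPM in Liver 1 and 2, and 1.30 and 1.52 CPM in Forebrain 1 and 2, which is 1 count in Liver 1 and 1412 in Liver 2. HCN3 passed in none of the comparisons, with edgeR adjusted p = 0.0622 in rumen against liver. Without Liver 1 it passed in all 3, with edgeR adjusted p = 1.66e-06 in rumen against liver, 0.0175 in rumen against forebrain and 2.21e-06 in liver against forebrain, and without Liver 2 in none. With no filter on low counts it passed in rumen against liver with edgeR adjusted p = 0.0479, and with DESeq2 its adjusted p there was 0.0257. Its neighbours in the RefSeq annotation are PKLR, the pyruvate kinase gene of liver and red cells, and the kinase gene CLK2. PKLR stood at 1.68 and 0.780 CPM in Rumen 1 and 2, 742 and 809 CPM in Liver 1 and 2, and 13.5 and 9.67 CPM in Forebrain 1 and 2. CLK2 stood at 110.3 and 114 CPM in Rumen 1 and 2, 57.4 and 321 CPM in Liver 1 and 2, and 39.4 and 35.4 CPM in Forebrain 1 and 2. PKLR was thus at like levels in both liver libraries, and CLK2 differed between them in the direction of HCN3. Whether reads of a neighbour were counted for HCN3 was not tested.

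Of the TRP channels, TRPV4 was enriched in rumen and TRPV6 in liver. TRPV4, a channel of epithelia and other cells that answers to osmotic stress and warmth, stood at 8.34 and 11.3 CPM in Rumen 1 and 2, 1.71 and 2.12 CPM in Liver 1 and 2, and 0.0813 and 0.144 CPM in Forebrain 1 and 2. Rumen lay above liver and liver above forebrain. TRPV4 was 85.6-fold higher by pooled counts with a 95% counting interval of 28.9 to 418 and edgeR adjusted p = 0.00152 in rumen against forebrain and higher, with a log2 fold change of 2.35 ± 0.58 (SE) and edgeR adjusted p = 0.0201 in rumen against liver. TRPV4 did not pass in rumen against liver without either Rumen library or either Forebrain library (edgeR adjusted p from 0.0521 to 0.122). TRPV6, the calcium-selective channel of absorbing epithelia and placenta, stood at 1.07 and 0.624 CPM in Rumen 1 and 2, 18.5 and 18.6 CPM in Liver 1 and 2, and 2.03 and 1.66 CPM in Forebrain 1 and 2. Liver lay above both others and its libraries were close together. TRPV6 was higher, with a log2 fold change of 3.32 ± 0.52 (SE) and edgeR adjusted p = 0.00239 in liver against forebrain and lower, with a log2 fold change of -4.44 ± 0.55 (SE) and edgeR adjusted p = 0.00157 in rumen against liver. Both TRPV6 calls held without any single library. TRPV3, a cation channel described in the rumen epithelium of grown cattle, had 0 counts in rumen, which allows up to 0.116 CPM, and 1 count in all, in Forebrain 1.

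Stratified epithelium markers were high in rumen, beside the empty level of TRPV3. The list summed to 14597 and 11928 CPM in Rumen 1 and 2, 85.7 and 183 CPM in Liver 1 and 2, and 7.81 and 6.86 CPM in Forebrain 1 and 2. All 9 tested members were higher in rumen against both other tissues. SCNN1A, a subunit of the epithelial sodium channel outside the set, stood at 6.35 and 6.55 CPM in Rumen 1 and 2, 0.744 and 0.963 CPM in Liver 1 and 2, and 0.651 and 1.23 CPM in Forebrain 1 and 2, with both rumen libraries above all others. The parts of epithelium and of smooth muscle in the levels of TRPV4, KCNJ15 and KCNE4 were not tested.

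Some TRPC and TRPM genes were lower in liver than in forebrain, and fewer of them than in rumen. TRPM3, a heat- and steroid-activated channel, stood at 6.05 and 7.02 CPM in Rumen 1 and 2, 0.670 and 0.578 CPM in Liver 1 and 2, and 7.81 and 4.62 CPM in Forebrain 1 and 2, and was higher, with a log2 fold change of 3.37 ± 0.62 (SE) and edgeR adjusted p = 0.00672 in rumen against liver. Liver lay below both other tissues for TRPM3. In the TRPC family, 4 of 7 tested genes were lower in liver against forebrain, TRPC1, TRPC4 and TRPC7 among them. TRPC1, TRPC4 and TRPC7 passed in neither comparison with rumen. TRPC1 did not pass in liver against forebrain with the 2 tissues fitted alone. The 4 lower genes became 1 without either Forebrain library. TRPC6 had 1 high library, at 10.1 and 2.18 CPM in Rumen 1 and 2, 1.86 and 1.48 CPM in Liver 1 and 2, and 3.01 and 2.81 CPM in Forebrain 1 and 2. TRPM7, a channel joined to a kinase and needed for magnesium balance, passed in none of the comparisons, at 7.80 and 10.3 CPM in Rumen 1 and 2, 41.6 and 14.8 CPM in Liver 1 and 2, and 14.96 and 7.94 CPM in Forebrain 1 and 2, and neither did TRPC4AP, at 79.96 and 66.7 CPM in Rumen 1 and 2, 127 and 72.00 CPM in Liver 1 and 2, and 71.6 and 69.5 CPM in Forebrain 1 and 2. TRPM8, the cold and menthol receptor, was lower, with a log2 fold change of -3.86 ± 1.24 (SE) and edgeR adjusted p = 0.0471 in rumen against liver, at 0 and 0.390 CPM in Rumen 1 and 2 against 2.61 and 3.28 CPM in Liver 1 and 2. TRPM8 did not pass in rumen against liver without Rumen 1 or either Forebrain library or with upper quartile scaling or with no filter on low counts or with the 2 tissues fitted alone (edgeR adjusted p from 0.0538 to 0.135).

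A gene was called enriched in a tissue when it passed against both others, each time by a log2 difference of 2 or more. In rumen these were 4 genes (4.82% of the tested set, where 3.76% of all tested genes were enriched in rumen): KCNE4, KCNJ15, KCNMB1 and TRPV4. In liver they were 5 genes (6.02%, with a background of 9.01%): KCNH3, KCNK5, KCNK17, KCNN4 and TRPV6. In forebrain they were 23 genes (27.7%, with a background of 8.22%). The rumen and liver shares lay near or below their backgrounds and are not a result about channels. The 4 rumen genes became 1 on leaving out any single Rumen or Forebrain library. The 5 liver genes became 3 without Rumen 2 or Forebrain 2. The 23 forebrain genes became 14 without Rumen 2 and 11 without either Forebrain library.

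**Figure D4:**
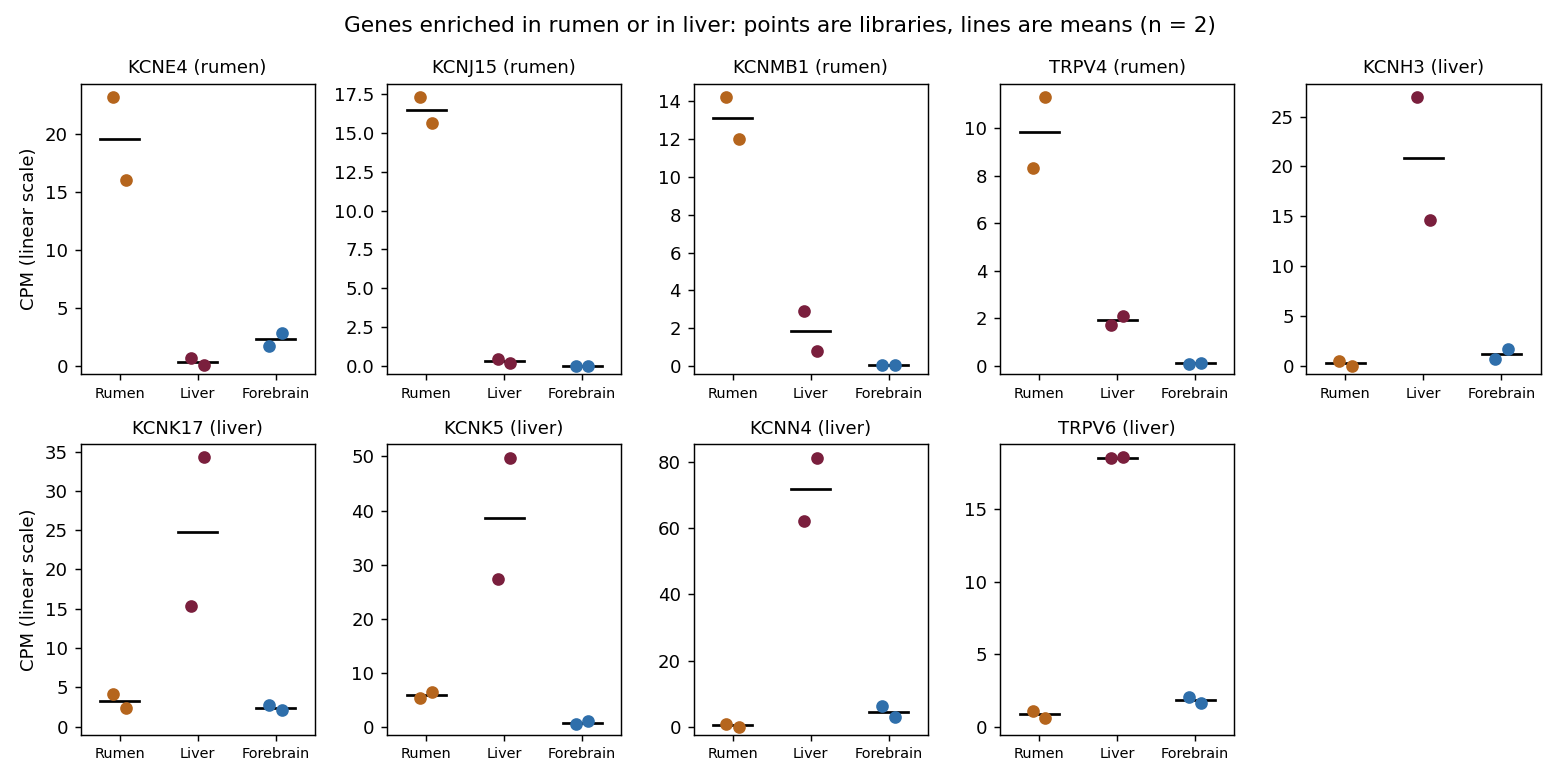
CPM of the 4 genes enriched in rumen and the 5 enriched in liver in each library, with tissue means as lines and a linear axis of its own for each gene. In each panel both libraries of the named tissue lie above the 4 others, and the 2 TRPV6 libraries of liver, at 18.5 and 18.6 CPM, nearly coincide.

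Across the 3 comparisons, 21 genes passed in all of them and 19 in none. The 21 became 5 without Rumen 1 or Rumen 2, 4 without Forebrain 1 and 5 without Forebrain 2, and the 19 became 29 without Rumen 1, 12 without Liver 2, 44 without Forebrain 1 and 40 without Forebrain 2. The commonest pattern, with 13 genes, was forebrain above rumen and rumen above liver. It held CACNA2D1, CACNB3, CACNG2, KCNA6, KCNC1, KCND2, KCNE5, KCNH6, KCNIP4, KCNJ11, KCNK2, KCNQ3 and SCN2A. Without Rumen 1 the pattern held 4 genes, of which 3 were among the 13, without Rumen 2 it held 5, of which 4 were, and without Forebrain 1 or Forebrain 2 it held 4, all of them among the 13. A further 12 genes were below forebrain in both other tissues and passed in neither direction between rumen and liver. KCNJ10, KCNIP1 and KCNMB4 were among these, and the pattern held fewer genes without either Forebrain library and more without either Liver library. In 8 genes rumen and forebrain each lay above liver and did not pass against each other. CACNA1G, KCNA5, KCNG1, KCNMA1 and TRPM3 were among them, and a missed threshold does not show that rumen and forebrain were alike. Several of the 8 left this pattern whichever library was left out. KCNA5 had 4 and 9 counts in Rumen 1 and 2 and none in liver. It lost its call in rumen against liver whichever library was left out, and KCNG1 did so without either Rumen library or either Forebrain library.

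The liver pair agreed less than the other pairs. Across the tested channel genes, which are not independent replicates, the Pearson correlation of log2(CPM + 1) between the libraries of a tissue was 0.922 in rumen, 0.830 in liver and 0.971 in forebrain. The next counts cover channel genes with a mean of at least 5 CPM in a tissue. With 1 added to each CPM, the libraries lay more than 2-fold apart for 1 of 25 in rumen, 9 of 23 in liver and 0 of 46 in forebrain. Plain CPM gave more such genes, among them SCN2A, KCNIP4 and KCNMB4 in rumen, KCNIP2 and TRPV2 in liver and KCNAB3 in forebrain. With 1 added, the liver genes more than 4-fold apart were HCN3 and KCNC4. In plain CPM, KCNK1, at 8.04 and 33.1 CPM in Liver 1 and 2, and KCNAB2, at 8.56 and 1.73 CPM, also were. KCNC4, a Kv3 gene, stood at 2.91 and 1.95 CPM in Rumen 1 and 2, 3.65 and 22.7 CPM in Liver 1 and 2, and 32.2 and 21.5 CPM in Forebrain 1 and 2, so that forebrain overlapped with Liver 2 alone. Counts of all genes in the 2 libraries of a tissue did not agree within sampling error, as the chi-square divided by its degrees of freedom was 15.5 for rumen, 280.1 for liver and 17.5 for forebrain.

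**Figure D5:**
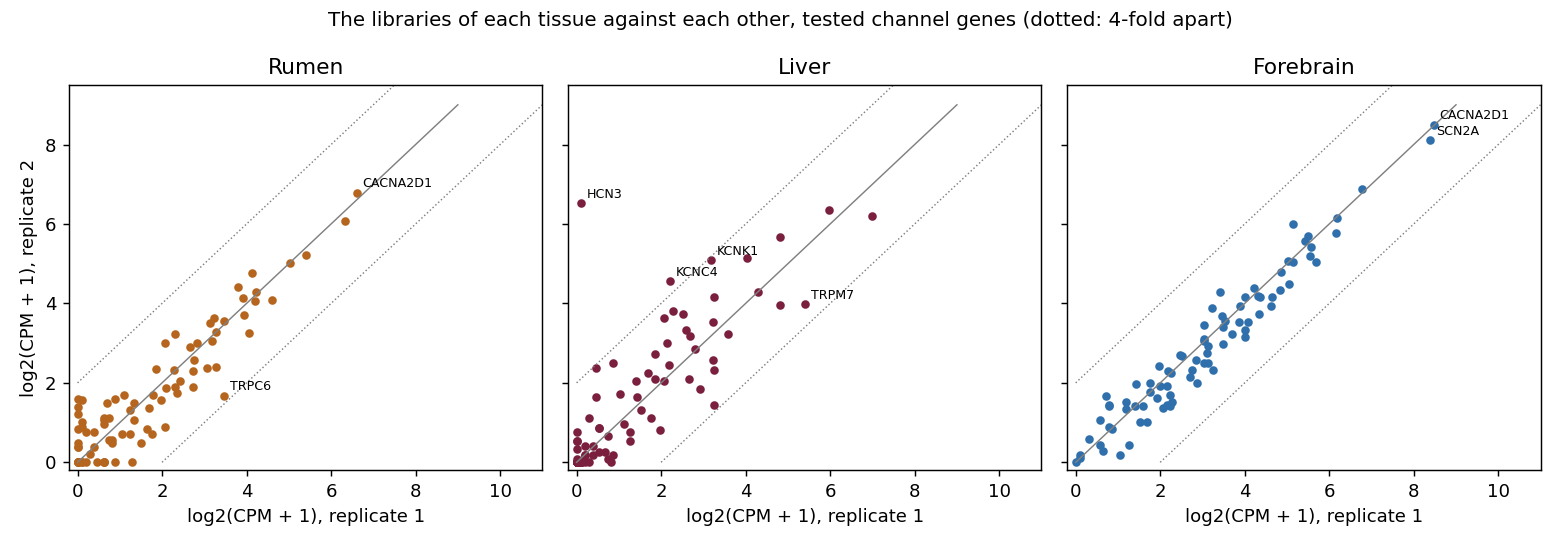
Library 2 against library 1 of each tissue, for the 83 tested channel genes, as log2(CPM + 1), with the line of equal levels and dotted lines at a 4-fold difference in CPM + 1. Forebrain points lie close to the line, and in liver HCN3, at 0.0744 CPM in Liver 1 and 90.7 CPM in Liver 2, lies far outside the dotted band.

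The 24 genes that were not tested were low in every library. KCNH1, of the ether-a-go-go family, reached 2.03 CPM in Rumen 2, and no other untested gene passed 1.14 CPM, the highest level of CACNB4. They included the potassium channel gene KCNS1, which had no counts in any library. In all, 21 genes of the set had no counts in rumen, 24 none in liver and 5 none in forebrain.

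Genes that work with these channels were counted from lists outside the set, which were chosen with earlier results of these data known. Partners and anchors of channels followed the forebrain pattern. Of 18 tested members, 12 were lower in rumen against forebrain, with a background of 19.9%, and 15 were lower in liver against forebrain, with a background of 25.9%. In rumen against liver 10 were higher, with a background of 20.1%. FGF13, which binds sodium channels from inside, stood at 8.65 and 11.1 CPM in Rumen 1 and 2, no counts in either Liver library, and 126 and 99.6 CPM in Forebrain 1 and 2. DPP10, a partner of Kv4 channels, stood at 1.99 and 5.46 CPM in Rumen 1 and 2, 0.521 and 0.963 CPM in Liver 1 and 2, and 70.3 and 58.7 CPM in Forebrain 1 and 2. Both were highest in forebrain, with rumen above liver. The ankyrin ANK3, which anchors sodium channels in neurons and also serves epithelial membranes, stood at 165 and 152 CPM in Rumen 1 and 2, 11.1 and 13.9 CPM in Liver 1 and 2, and 207 and 184 CPM in Forebrain 1 and 2. Rumen lay below forebrain and far above liver.

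Other ion channels were called in both directions at shares near the backgrounds, which is not a result about the list. In rumen against forebrain 5 of 23 tested members were higher and 4 lower, with backgrounds of 19.5% and 19.9%. In liver against forebrain 7 were higher and 6 lower, with backgrounds of 29.4% and 25.9%. In rumen against liver 6 were higher and 6 lower, with backgrounds of 20.1% and 20.3%. PKD2, a polycystin of the wider TRP superfamily, stood at 69.3 and 76.5 CPM in Rumen 1 and 2, 11.8 and 15.7 CPM in Liver 1 and 2, and 36.3 and 19.5 CPM in Forebrain 1 and 2, highest in rumen. ANO1, the calcium-activated chloride channel of interstitial cells of Cajal, stood at 4.67 and 6.48 CPM in Rumen 1 and 2, 41.1 and 13.04 CPM in Liver 1 and 2, and 0.732 and 0.577 CPM in Forebrain 1 and 2. It was highest in liver and lowest in forebrain. The genes of calcium release and store-operated entry were likewise called at shares near these backgrounds. Of 17 tested members, 4 were higher and 4 lower in rumen against forebrain, and 5 higher and 4 lower in liver against forebrain. In rumen against liver 3 were higher and 4 lower. ITPR3, an inositol trisphosphate receptor, stood at 39.3 and 33.2 CPM in Rumen 1 and 2, 167 and 229 CPM in Liver 1 and 2, and 2.60 and 4.26 CPM in Forebrain 1 and 2, highest in liver. REST, the factor that represses neuronal genes, many channel genes among them, passed in none of the comparisons, at 13.5 and 9.52 CPM in Rumen 1 and 2, 34.7 and 4.75 CPM in Liver 1 and 2, and 13.8 and 7.87 CPM in Forebrain 1 and 2, and its liver libraries lay apart.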

How the data were processed

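Poly(A) RNA of 6 fetal cattle libraries was sequenced. The deposited table holds whole-number read counts per gene symbol, which the authors made with HISAT2 2.0.5 and featureCounts 1.5.0-p3, with edgeR 3.18.1 also named, per the submitters' processing notes. No source used here gives the build, the annotation or whether counting used strand. Overlapping and antisense genes may therefore share reads. Groups followed the tissue labels. In R 4.3.3, edgeR 4.0.16 was fitted to all 6 libraries (filterByExpr, TMM scaling, quasi-likelihood test with 3 residual degrees of freedom), with Benjamini-Hochberg adjustment over 11478 of 14179 genes. It was tested on simulated data. Library totals are given with the results. Alternatives were RLE and upper quartile scaling, no filter on low counts, DESeq2 1.42.0, limma 3.58.1 voom, the 2 tissues of a comparison fitted alone, a replicate block, and leaving out each library.

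The channel genes and all lists were chosen with earlier results of these data known. Members were named by a rule that took, in each comparison, the 12 called members with the largest change in each direction whose libraries did not overlap, the 10 with the highest mean in each tissue, the highest of each family, all members enriched in rumen or liver, and the 5 highest of those called in no comparison. Others, and most genes outside the set, were named after their values were seen. No sequences or coordinates are used here. Some genes of the set are not reported here.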

Additional observations from a re-analysis of the deposited data

How the results depend on the processing

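Over 3198 results of single genes and comparisons under 13 alternatives, 2825 kept their side of the threshold, 255 no longer passed and 118 newly passed. Of results that passed in either fit, 0 reversed. Changes of direction where neither fit passed count among the 2825. For example, the log2 fold change of HCN3 in rumen against liver went from -7.35 to 1.73 without Liver 2. In rumen against liver, the 26 higher and 11 lower genes became 16 and 6 with these tissues fitted alone, and 17 were lower with DESeq2. On leaving out 1 library at a time, the counts lay between 15 and 29 higher and between 4 and 17 lower in rumen against liver, between 3 and 8 higher and between 14 and 46 lower in rumen against forebrain, and between 4 and 12 higher and between 25 and 49 lower in liver against forebrain. Enriched genes then numbered 1 to 4 in rumen, 3 to 7 in liver and 11 to 31 in forebrain. Such fits have fewer samples and assume that the lone library of a tissue varies like the others. Deviations of same-numbered libraries from their tissue means had a correlation across genes of 0.0172 for rumen and liver. The correlation was -0.0885 for rumen and forebrain and 0.0771 for liver and forebrain. With 2 libraries per tissue, such values cannot show whether same-numbered libraries came from the same fetus. With the replicate block the calls were 22 higher and 9 lower, 6 higher and 28 lower, and 9 higher and 44 lower, in the order of comparisons above, and 4, 5 and 20 genes were enriched in rumen, liver and forebrain. Under the block 17 of 249 results no longer passed and 2 newly passed. Those that no longer passed included SCN1A, SCN3B, KCNS3, KCNJ11, KCNJ16 and KCNQ3 in rumen against forebrain, KCNJ16 and TRPC1 in liver against forebrain, and KCNA5, KCNE5, KCNG1, KCNK12 and TRPM8 in rumen against liver. Upper quartile scaling moved the median of all genes by 0.11 in rumen against liver. Counts over the marker and partner lists were not recomputed under the alternatives. Depth limits the genes with few counts, for which only bounds or wide intervals are given.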
